A study of Arabidopsis thaliana with 4 samples.

Results

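The genes of chlorophyll and heme metabolism were followed in Arabidopsis thaliana plants labelled as a double knockout of TRIC1 and TRIC2, called the dko here, and in their wild type, accession Col-0. The set held 42 genes of 34133 loci in each table. It was chosen by locus identifier and runs from glutamyl-tRNA reductase to chlorophyll, heme and bilin, with 4 regulators and 8 genes of chlorophyll breakdown. TRIC1 and TRIC2 encode mitochondrial membrane proteins for which a part in tRNA import has been described. RNA depleted of ribosomal RNA was sequenced from 4 groups: rosette leaves of wild type and dko at 4 weeks, and whole seedlings of wild type and dko at 2 weeks. Seeds of all groups were kept for 2 days at 4 °C, and plants were grown at 22 °C under a 16 h photoperiod and a light intensity labelled as 80 nmol quanta per square metre and second, with a move to soil on day 5 stated for the plants whose rosettes were taken. Each group is stated to hold 3 replicates, which the authors pooled to 1 FPKM value (fragments per kilobase of transcript, relative to all mapped fragments) per gene, so no value has a standard deviation here. The labels do not say whether the replicates were separate plants, so the p-values reflect the spread among these samples alone, and that spread may be technical. Error enters only through Cuffdiff's q-value (a p-value adjusted over all loci tested) in the authors' deposited tables, and a gene is said to have risen or fallen where q was at or under 0.05. The tables of rosettes and seedlings were normalised separately, sequencing depth is unknown, and levels are compared within a tissue only.

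The groups matched their labels only in part. In the authors' deposited tables TRIC2 was left at 0.394% of wild type in dko rosettes (q = 0.146) and at 2.07% in dko seedlings (q = 0.000768). TRIC1 fell in both, to 30.7% in dko rosettes (q = 0.000899) and 47.9% in dko seedlings (q = 0.000768), per the authors' deposited tables. The labels do not describe the alleles. Of 10 root marker genes, 8 were under 0.5 FPKM in both seedling groups, among them PIN2, COBL9 and IRT1, so the root-defining transcripts that a whole seedling should hold were close to 0. The other pair, SHR and PYK10, a beta-glucosidase of roots and hypocotyls, held most of the list's sum, which was 220 FPKM in wild-type and 185 FPKM in dko seedlings, and 5.68 and 4.04 FPKM in rosettes. Of 4 flower markers the sum was at most 1.53 FPKM, and the pollen gene VGD1 was at most 3.25 FPKM.

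Chlorophyll and heme are tetrapyrroles made in the plastid along a shared route. Glutamate bound to its tRNA is reduced and rearranged to 5-aminolevulinic acid (ALA), and ALA is built up over several steps to protoporphyrin IX. Magnesium inserted into this ring leads to chlorophyll, and iron inserted into it leads to heme and to the bilin that phytochromes carry. Because free intermediates of the route sensitise cells to light, plants hold ALA formation under tight control, and the nuclear factors GLK1 and GLK2 drive many of its genes together with those of the light-harvesting proteins.

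In dko seedlings most of the change was a loss of transcripts, and it lay mainly in the magnesium branch and in the GLK factors. PORA, PORB and GLK1 fell by the most, and HEMA1, GUN4, CRD1 and CAO fell to between 57.7% and 66.7% of wild type. In dko rosettes fewer members passed, with GLK1 and PORB again lowest, and CLH2, a chlorophyllase gene, rose from 1.48 to 18.4 FPKM. Of 40 members tested in rosettes, 6 fell (15%), 1 rose (2.5%) and 33 did not pass, where in the authors' deposited rosette table, of all loci tested, 8.94% were lower, 7.81% higher and 16.8% called in either direction. Of 41 members tested in seedlings, 13 fell (31.7%), 3 rose (7.32%) and 25 did not pass, against 8.14% lower, 8.4% higher and 16.5% called in either direction among all loci tested in the authors' deposited seedling table. Members are mostly well expressed, with a wild-type median of 39.1 FPKM in rosettes and 69.6 FPKM in seedlings. Among loci that reached 10 FPKM in a group, 8.52% were lower, 8.51% higher and 17% either in dko rosettes, and 12% were lower, 9.81% higher and 21.8% either in dko seedlings. The median log2 ratio of dko over wild type was -0.17 over the tested members in rosettes and -0.20 in seedlings, and 0.01 over all tested loci in each tissue. In rosettes the member share called in either direction (17.5%) was thus near that of all loci (16.8%), and the share that fell (15%) lay above theirs (8.94%). In seedlings the member shares called in either direction (39%) and lower (31.7%) both lay above those of all loci (16.5% and 8.14%).

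The summed level of 5 leaf marker genes (RBCS1A, LHCB1.3, CA1, GLDP1 and RCA) was lower in the dko of both tissues. It went from 16328 to 8240 FPKM in rosettes and from 30245 to 14096 FPKM in seedlings, none was at 0, and 2 of 5 fell in rosettes and 4 of 5 in seedlings by q in the authors' deposited tables. In such bulk samples fewer green cells and less RNA per cell cannot be told apart, and the part of tissue make-up in the values below was not tested.

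**Figure D1:**
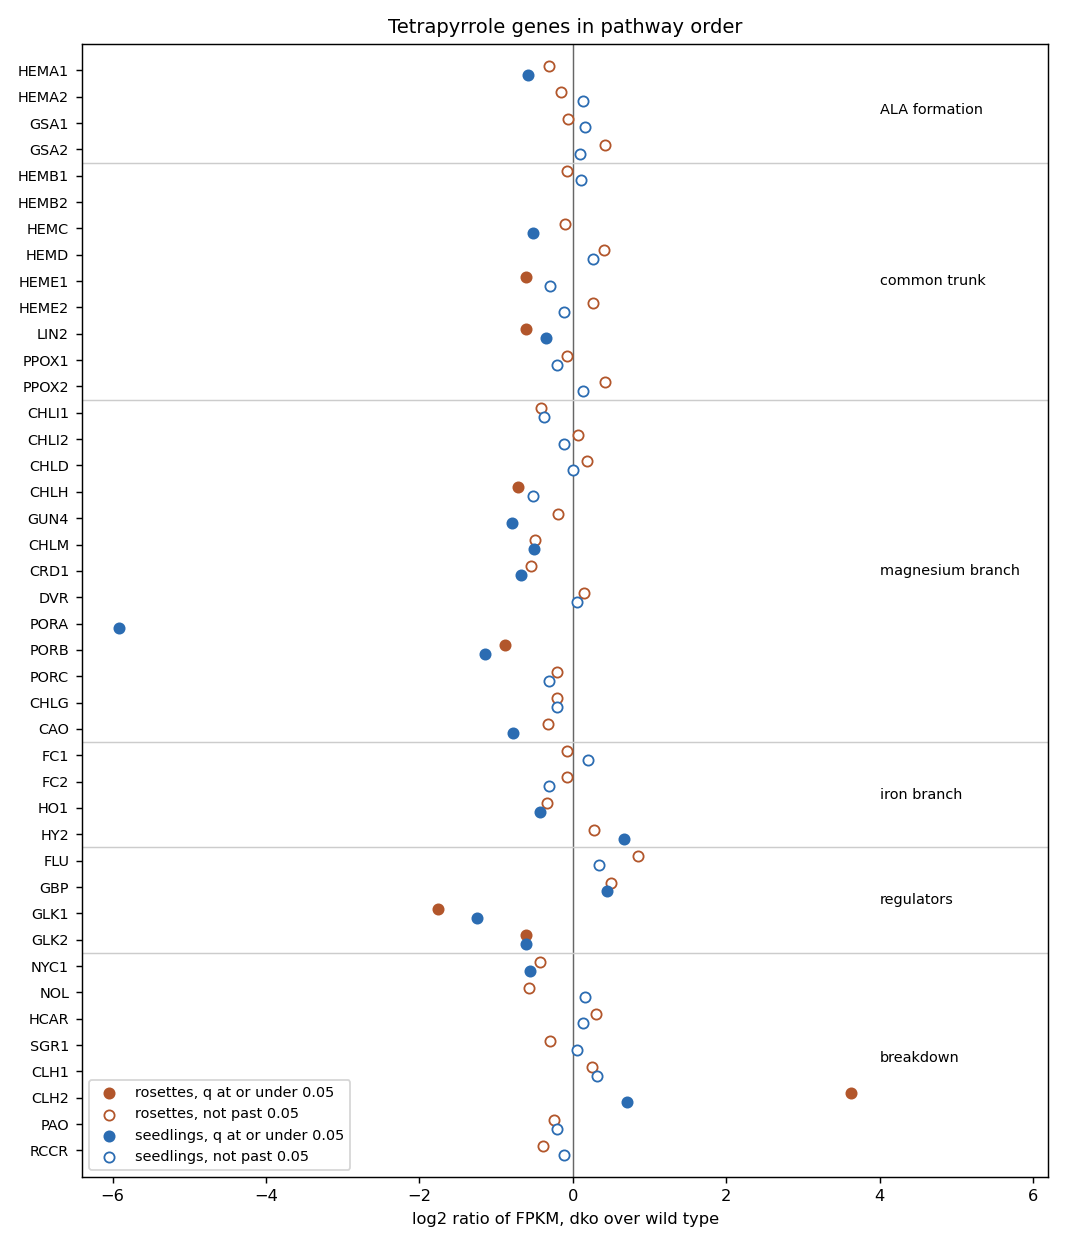
Log2 ratio of FPKM in dko over wild type (horizontal axis) for the members in pathway order, in rosettes (brown) and seedlings (blue), with filled points where the authors' q was at or under 0.05 and open points where it was not. HEMB2 has no point, and PORA has none in rosettes, since they were not tested. In seedlings the filled points of the magnesium branch all lie left of 0, from -0.51 for CHLM to -5.92 for PORA, and CLH2 in rosettes lies at 3.63.

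ALA formation rests on glutamyl-tRNA reductase, encoded by HEMA1 (AT1G58290) and HEMA2 (AT1G09940), and on glutamate-1-semialdehyde aminotransferase, encoded by GSA1 (AT5G63570) and GSA2 (AT3G48730). HEMA1, the light-induced gene of the pair, was at 34.1 FPKM in wild-type rosettes, 27.5 in dko rosettes, 111 in wild-type seedlings and 74.3 in dko seedlings. It fell in seedlings (log2 ratio -0.58, q = 0.000768) and did not pass in rosettes (-0.31, q = 0.385), per the authors' deposited tables. HEMA2 was at 22.0 and 19.8 FPKM in wild-type and dko rosettes and at 9.66 and 10.5 FPKM in wild-type and dko seedlings, with q of 0.731 and 0.631 in the authors' deposited tables. The sum of both reductases went from 56.0 to 47.4 FPKM in rosettes and from 121 to 84.8 FPKM in seedlings, where HEMA1 made up 92.0% of it in wild type and 87.6% in the dko. GSA1 and GSA2 did not pass in either tissue, with log2 ratios between -0.06 and 0.42 and a smallest q of 0.199 in the authors' deposited tables. Of these 4 genes, none passed in rosettes and 1 fell in seedlings, and the Cuffdiff counts at an unadjusted p under 0.05 were the same. At that unadjusted level, 2514 of all 18338 loci tested in rosettes were higher and 2679 lower. In seedlings 2768 of 19747 were higher and 2598 lower. Among all loci tested, 16.8% were called by q in either direction in rosettes and 16.5% in seedlings.

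Of the 9 genes of the common trunk, which turns ALA into protoporphyrin IX, 2 fell in each tissue and none rose. That was 25% of the 8 tested in each tissue, where 8.94% of all loci tested were lower in rosettes and 8.14% in seedlings. LIN2 (AT1G03475) encodes coproporphyrinogen oxidase, and its loss is known to cause lesions in leaves. The level of LIN2 was 64.7 and 42.5 FPKM in wild-type and dko rosettes, and 101 and 79.1 FPKM in wild-type and dko seedlings. It was the only trunk gene past the threshold in both tissues, with log2 ratios of -0.61 (q = 0.0343) and -0.35 (q = 0.0384) in the authors' deposited tables. HEME1 (AT3G14930), a uroporphyrinogen decarboxylase gene, fell in rosettes from 26 to 17 FPKM (log2 ratio -0.61, q = 0.0335), and in seedlings went from 97.4 to 79.0 FPKM (-0.30, q = 0.0979), per the authors' deposited tables. Its partner HEME2 (AT2G40490) was at 42.3 and 50.6 FPKM in wild-type and dko rosettes (q = 0.479 in the authors' deposited table). Both genes together came to 68.3 FPKM in wild-type and 67.5 FPKM in dko rosettes. In seedlings HEME2 was at 141 and 130 FPKM (q = 0.636 in the authors' deposited table).

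HEMC (AT5G08280), which encodes porphobilinogen deaminase, fell in seedlings from 194 to 135 FPKM (log2 ratio -0.52, q = 0.000768) and was at 59.0 and 55.2 FPKM in rosettes (q = 0.843), per the authors' deposited tables. The span of HEMC in the tables is shared with AT5G08270 on the other strand, which was at 4.96 and 5.36 FPKM in seedlings. Spans of CRD1 and GBP are shared in the same way, with AT3G56950 at 17.8 and 20.3 FPKM and AT3G21210 at 0.492 and 0.378 FPKM in wild-type and dko seedlings. HEMB1 (AT1G69740), HEMD (AT2G26540), PPOX1 (AT4G01690) and PPOX2 (AT5G14220), the genes of ALA dehydratase, uroporphyrinogen III synthase and protoporphyrinogen oxidase, did not pass, with log2 ratios between -0.21 and 0.42 and a smallest q of 0.193 in the authors' deposited tables. HEMB2 (AT1G44318), a relative of ALA dehydratase, is listed at 0 in all 4 groups and was not tested. No trunk gene was higher in either tissue at an unadjusted p under 0.05, and 3 were lower in seedlings at that level. There 2514 of all 18338 loci tested in rosettes were higher and 2679 lower, and 2768 and 2598 of 19747 in seedlings.

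In the magnesium branch, which leads from protoporphyrin IX to chlorophyll, 6 of 13 tested genes fell in seedlings and 2 of 12 in rosettes, and none rose in either. At an unadjusted p under 0.05 these counts were 9 and 4 lower, with 0 higher in both tissues. At that level 2598 of all 19747 loci tested in seedlings were lower and 2768 higher. In rosettes 2679 of 18338 were lower and 2514 higher. By q, the fallen genes were 46.2% of those tested in seedlings and 16.7% in rosettes, against 8.14% and 8.94% of all loci tested. The median log2 ratio of the branch was -0.51 in seedlings and -0.27 in rosettes. Magnesium chelatase, the first enzyme of the branch, is built of the subunits CHLH (AT5G13630), CHLD (AT1G08520) and CHLI, and GUN4 (AT3G59400) binds its porphyrins and stimulates it. CHLH, the large porphyrin-binding subunit, was at 96.3 and 58.8 FPKM in wild-type and dko rosettes and at 363 and 253 FPKM in wild-type and dko seedlings. Its log2 ratio was -0.71 in rosettes (q = 0.0453) and -0.52 in seedlings (q = 0.0576) in the authors' deposited tables, so CHLH lay just inside the threshold in one tissue and just outside it in the other. GUN4 fell in seedlings from 67.9 to 39.2 FPKM (log2 ratio -0.79, q = 0.000768) and was at 12.3 and 10.7 FPKM in rosettes (q = 0.688), per the authors' deposited tables.

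The CHLI and CHLD subunits of the chelatase did not pass. CHLI1 (AT4G18480) was at 80.6 and 60.6 FPKM in rosettes (q = 0.210) and at 273 and 211 FPKM in seedlings (q = 0.0653), and its copy CHLI2 (AT5G45930) had log2 ratios of 0.07 and -0.12, all per the authors' deposited tables. CHLD was at 78.2 and 78.0 FPKM in wild-type and dko seedlings. The subunits of this one enzyme thus had unequal ratios in seedlings, from -0.52 for CHLH to 0.00 for CHLD, and the difference between them was not tested.

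The methyltransferase CHLM (AT4G25080) and the oxidative cyclase CRD1 (AT3G56940), which closes the fifth ring, act next. CHLM fell in seedlings from 124 to 86.8 FPKM (log2 ratio -0.51, q = 0.00202), and in rosettes was at 70.3 and 50.0 FPKM (-0.49, q = 0.102), per the authors' deposited tables. CRD1 had the highest level of all members in each wild type, 306 FPKM in rosettes and 1120 FPKM in seedlings. It fell in seedlings to 705 FPKM (log2 ratio -0.67, q = 0.00408) and was at 211 FPKM in dko rosettes (-0.54, q = 0.148), per the authors' deposited tables. For both genes the ratios of the 2 tissues were close, while the q-values were not. DVR (AT5G18660), the divinyl reductase, did not pass in either tissue, and the authors' deposited tables give it log2 ratios of 0.14 and 0.05.

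Protochlorophyllide reductase, the light-dependent enzyme that turns protochlorophyllide into chlorophyllide, is encoded by PORA (AT5G54190), PORB (AT4G27440) and PORC (AT1G03630). PORA, known as the form of dark-grown seedlings, was at 0.497 and 0.0459 FPKM in wild-type and dko rosettes, where it was not tested, and at 10.1 and 0.167 FPKM in wild-type and dko seedlings. The remaining level in dko seedlings was 1.66% of wild type (q = 0.000768 in the authors' deposited table), the lowest share of any member tested. Because the dko value was near 0, the log2 ratio of -5.92 became -3.25 with 1 FPKM added to both groups and -5.25 with 0.1 FPKM added. PORB was at 174 and 94.8 FPKM in wild-type and dko rosettes and at 949.8 and 429 FPKM in wild-type and dko seedlings, so 54.4% and 45.2% of wild type were left. It fell in both tissues, with q of 0.00977 in rosettes and 0.000768 in seedlings in the authors' deposited tables. PORC, the form that rises in strong light, was at 114 and 99.9 FPKM in rosettes (q = 0.640) and at 174 and 140.3 FPKM in seedlings (q = 0.0898), per the authors' deposited tables.

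The sum of the 3 reductase genes went from 289 to 195 FPKM in rosettes and from 1134 to 569 FPKM in seedlings, to 67.3% and 50.2% of wild type. PORC rested at 39.5% of that sum in wild type and 51.3% in the dko for rosettes, and at 15.4% and 24.6% for seedlings. The coding sequences of PORA and PORB are 83.3% identical, with a longest shared run of 48 bases in their transcripts, so reads could be shared, and no label says how shared reads were assigned. In dko seedlings PORA was listed at 0.039% of the PORB level, against 1.06% in wild type.

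**Figure D2:**
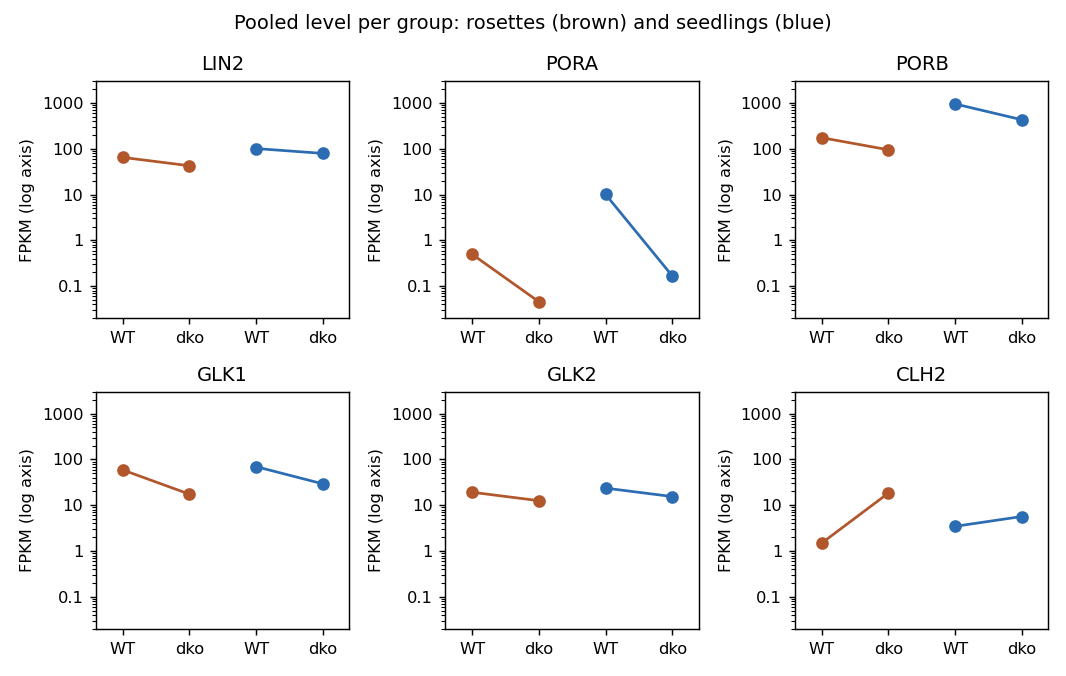
Pooled FPKM (log axis, the same range in every panel) of PORA and of the 5 members past q 0.05 in both tissues, in wild type and dko of rosettes (brown) and seedlings (blue), 1 value per group. GLK1, GLK2, LIN2, PORA and PORB have lower dko than wild-type values in each tissue, and CLH2 rises from 1.48 to 18.4 FPKM in rosettes and from 3.46 to 5.68 FPKM in seedlings.

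The bases before the starts of PORA and PORB are shown because these genes fell by the most within the branch and their upstream sequences can be compared. In TAIR10, the build of the tables, PORA spans 21990912 to 21992812 on chromosome 5 and PORB 13725546 to 13727353 on chromosome 4. The windows below come from the RefSeq assembly TAIR10.1 and end at the base before the gene start annotated there. They are chr5:21992815-21993064 on the minus strand for PORA and chr4:13725360-13725545 on the plus strand for PORB, the latter cut where an exon of the neighbouring gene ends. Capitals mark runs of at least 8 bases that a local alignment of both windows found identical.
PORA: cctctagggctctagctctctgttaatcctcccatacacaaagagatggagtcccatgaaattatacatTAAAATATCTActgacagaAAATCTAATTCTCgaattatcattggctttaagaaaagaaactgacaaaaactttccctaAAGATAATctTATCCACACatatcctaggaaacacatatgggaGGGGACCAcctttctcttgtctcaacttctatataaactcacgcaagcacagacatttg
PORB: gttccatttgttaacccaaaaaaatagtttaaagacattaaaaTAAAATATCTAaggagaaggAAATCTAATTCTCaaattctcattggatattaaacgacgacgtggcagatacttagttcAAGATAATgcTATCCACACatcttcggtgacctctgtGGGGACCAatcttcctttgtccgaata
The alignment covered 178 positions, of which 118 (66.3%) were identical, and the longest shared run had 13 bases. The 250 bases before PORC, which overlap an exon of another gene, aligned with the bases before PORB over 25 positions and with those before PORA over 23.

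A total of 3 short motifs were searched on both strands in the 250 bases before each gene start. They were CCAATC, described as a motif bound by GLK factors, the G-box CACGTG, bound by HY5 and the phytochrome-interacting factors, and GATAAG, a core of GATA factor sites. CCAATC was found before 3 of the 42 members (7.14%), CACGTG before 7 (16.7%) and GATAAG before 3 (7.14%), where 10.2%, 6.49% and 12.3% of 27437 windows of protein-coding genes held them. Of the 15 members that fell in at least 1 tissue, 2 (13.3%) held CCAATC, 2 (13.3%) held CACGTG and 3 (20%) held GATAAG. Of the other 27 members, 1 (3.7%) held CCAATC, 5 (18.5%) held CACGTG and 0 held GATAAG, so the G-box was not more frequent among the members that fell. PORB held CCAATC from 22 to 17 bases before its start and once more from 219 to 214 bases before it, in the part cut from the printed window. GUN4 held CCAATC once, and its window is not printed. The G-box was found in the windows of CRD1 and CAO (AT1G44446), which are shown with it in capitals, at chr3:21076316-21076504 on the plus strand, cut like that of PORB, and at chr1:16851272-16851521 on the minus strand.
CRD1: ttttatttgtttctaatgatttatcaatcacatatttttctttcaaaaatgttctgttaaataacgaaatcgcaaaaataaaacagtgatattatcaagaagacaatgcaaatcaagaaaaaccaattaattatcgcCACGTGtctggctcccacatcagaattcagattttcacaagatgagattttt
CAO: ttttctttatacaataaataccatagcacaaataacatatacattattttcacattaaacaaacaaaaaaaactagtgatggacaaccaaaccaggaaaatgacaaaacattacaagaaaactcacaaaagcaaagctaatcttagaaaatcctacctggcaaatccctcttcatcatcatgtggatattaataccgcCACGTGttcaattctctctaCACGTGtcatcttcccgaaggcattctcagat
In both, a G-box lay from 52 to 47 bases before the start, and CAO held a second one from 32 to 27 bases before it. Such matches describe letters in a window and show no binding.

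The last steps attach the phytol tail and make chlorophyll b. CAO, chlorophyllide a oxygenase, which makes chlorophyll b, fell in seedlings from 70.0 to 40.6 FPKM (log2 ratio -0.78, q = 0.000768) and was at 24.5 and 19.5 FPKM in rosettes (q = 0.323), per the authors' deposited tables. CHLG (AT3G51820), chlorophyll synthase, was at 63.3 and 55.1 FPKM in rosettes and at 92.1 and 80.2 FPKM in seedlings, and did not pass (q = 0.600 and 0.327 in the authors' deposited tables).

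In the iron branch, which makes heme and the phytochrome chromophore, none of 4 genes passed in rosettes, and in seedlings 1 fell and 1 rose. None passed in rosettes at an unadjusted p under 0.05 by Cuffdiff either. At that level 2514 of all 18338 loci tested in rosettes were higher and 2679 lower. Among all loci tested, 16.8% were called by q in either direction in rosettes and 16.5% in seedlings. FC1 (AT5G26030) and FC2 (AT2G30390) encode ferrochelatases, which insert the iron. FC1 was at 112 and 106 FPKM in wild-type and dko rosettes and at 33.6 and 38.7 FPKM in wild-type and dko seedlings, with q of 0.910 and 0.405 in the authors' deposited tables. FC2 was at 52.7 and 50.4 FPKM in rosettes (q = 0.889) and at 50.4 and 40.6 FPKM in seedlings (q = 0.0743), per the authors' deposited tables. The summed ferrochelatase level was 95.2% of wild type in dko rosettes and 94.4% in dko seedlings, beside 67.3% and 50.2% for the summed protochlorophyllide reductases.

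Downstream of heme the next genes moved in opposite directions in seedlings. HO1 (AT2G26670), the main plastid heme oxygenase, fell from 68.5 to 50.9 FPKM (log2 ratio -0.43, q = 0.0105), while HY2 (AT3G09150), which makes phytochromobilin from its product, rose from 13 to 20.6 FPKM (0.67, q = 0.000768), per the authors' deposited table. In rosettes HO1 was at 81.4 and 64.2 FPKM (q = 0.304) and HY2 at 4.30 and 5.19 FPKM (q = 0.574), per the authors' deposited table.

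Among the regulators, both GLK genes fell in both tissues. GLK1 (AT2G20570) was at 59.1 and 17.5 FPKM in wild-type and dko rosettes and at 69.5 and 29.3 FPKM in wild-type and dko seedlings. That left 29.6% and 42.2% of wild type, and the authors' deposited tables give log2 ratios of -1.76 (q = 0.000899) and -1.25 (q = 0.000768). GLK2 (AT5G44190) was at 19.2 and 12.6 FPKM in rosettes and at 23.6 and 15.5 FPKM in seedlings, with the same log2 ratio of -0.61 in each (q = 0.0440 and 0.000768 in the authors' deposited tables). Summed over the pair, 38.4% of the wild-type GLK level was left in rosettes and 48.1% in seedlings, and GLK1 made up 75.5% of it in wild-type and 58.1% in dko rosettes. The coding sequences of the pair are 68.3% identical, with a longest shared run of 24 bases in their transcripts. In TAIR10 GLK1 spans 8855358 to 8857756 on chromosome 2 and GLK2 17798369 to 17800824 on chromosome 5.

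The negative regulator of ALA formation and the anchor of its first enzyme had values on the other side of 0. FLU (AT3G14110), which shuts down glutamyl-tRNA reductase in the dark, was at 31.0 and 55.8 FPKM in rosettes (log2 ratio 0.85, q = 0.276) and at 86.1 and 109 FPKM in seedlings (0.34, q = 0.317), and passed in neither of the authors' deposited tables. Its span is shared with AT3G14100 on the other strand, a gene at 85.6 to 116 FPKM in the 4 groups. GBP (AT3G21200), which binds glutamyl-tRNA reductase at the thylakoid membrane, rose in seedlings from 63.1 to 85.4 FPKM (log2 ratio 0.44, q = 0.00504) and was at 34.7 and 48.9 FPKM in rosettes (0.50, q = 0.0825), per the authors' deposited tables.

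**Figure D3:**
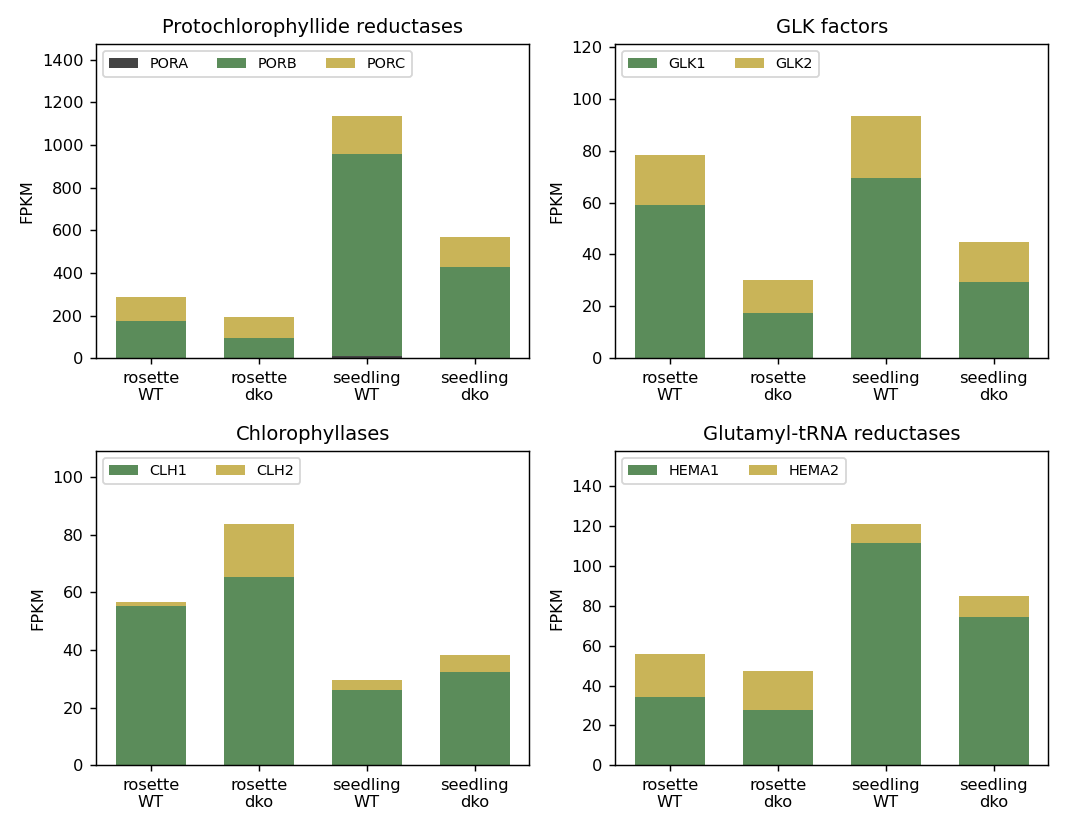
Summed FPKM per group (vertical axis, from 0) of the protochlorophyllide reductases, the GLK factors, the chlorophyllases and the glutamyl-tRNA reductases, each bar split by gene, 1 pooled value per group. The reductase sum goes from 1134 to 569 FPKM in seedlings, mostly through PORB, and the chlorophyllase sum from 56.7 to 83.9 FPKM in rosettes, where CLH2 adds more than CLH1.

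Of the 8 genes of chlorophyll breakdown, 1 rose and none fell in rosettes, and 1 rose and 1 fell in seedlings. That was 12.5% called in rosettes and 25% in seedlings, against 16.8% and 16.5% of all loci tested. CLH2 (AT5G43860) is one of the chlorophyllase genes, whose enzymes remove the phytol tail and are dispensable for breakdown in senescing leaves. It was at 1.48 and 18.4 FPKM in wild-type and dko rosettes, a 12.4-fold rise (q = 0.000899), and at 3.46 and 5.68 FPKM in seedlings, a 1.64-fold rise (q = 0.0116), per the authors' deposited tables. With 1 FPKM added to both groups, its log2 ratio in rosettes went from 3.63 to 2.96. CLH1 (AT1G19670), the other chlorophyllase gene, stayed the more abundant one, at 55.2 and 65.5 FPKM in rosettes (q = 0.536) and at 26.1 and 32.5 FPKM in seedlings (q = 0.0988), per the authors' deposited tables. Summed over both genes, the chlorophyllase level was 148% of wild type in dko rosettes and 129% in dko seedlings. The pair shares 63.5% of its coding bases, with no common run over 13 bases. CLH2 spans 17630450 to 17632312 on chromosome 5 in TAIR10, with 2 exons in the RefSeq annotation.

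Of the other breakdown genes, 1 passed the threshold, in seedlings. NYC1 (AT4G13250), a chlorophyll b reductase, fell in seedlings from 105 to 70.9 FPKM (log2 ratio -0.56, q = 0.000768) and was at 141 and 105 FPKM in rosettes (-0.43, q = 0.240), per the authors' deposited tables. NOL (AT5G04900), its partner, was at 13 and 8.79 FPKM in rosettes (q = 0.0758) and at 15.1 and 16.8 FPKM in seedlings (q = 0.528), per the authors' deposited tables. SGR1 (AT4G22920), which removes magnesium from chlorophyll a, PAO (AT3G44880), the oxygenase that opens the ring, RCCR (AT4G37000), the reductase that follows it, and HCAR (AT1G04620), which converts hydroxymethyl chlorophyll, did not pass in either tissue. Their log2 ratios lay between -0.39 and 0.30 in rosettes and between -0.21 and 0.13 in seedlings in the authors' deposited tables, with q of 0.218 or more. At an unadjusted p under 0.05 the breakdown counts were 1 higher and 1 lower in rosettes and 2 higher and 1 lower in seedlings. Of all loci tested, 2514 of 18338 were higher and 2679 lower in rosettes at that level. The counts for seedlings were 2768 and 2598 of 19747.

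Set side by side, the tissues gave log2 ratios of the same sign for 31 of the 40 members tested in both. GLK1, GLK2, LIN2 and PORB fell in both and CLH2 rose in both, 4 lower (10%) and 1 higher (2.5%), where of 17890 loci tested in both tissues 2.56% were lower in both, 4.05% higher in both and 6.61% one or the other. No member passed in opposite directions, a pattern found for 0.676% of those loci. HEME1 and CHLH passed in rosettes and not in seedlings, and 10 members passed in seedlings and not in rosettes: HEMA1, HEMC, GUN4, CHLM, CRD1, CAO, HO1, HY2, GBP and NYC1. These 12 members had the same sign in both tissues, and the difference between tissues was not tested. Over the 40 members, which share the libraries of each tissue, Pearson's r between the tissues' log2 ratios was 0.71 and Spearman's rho 0.77, and r was 0.78 without CLH2. The counts past the threshold in 1 tissue only, the same-sign count and the correlation were not worked out for all loci. They are thus not read as particular to the members.

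**Figure D4:**
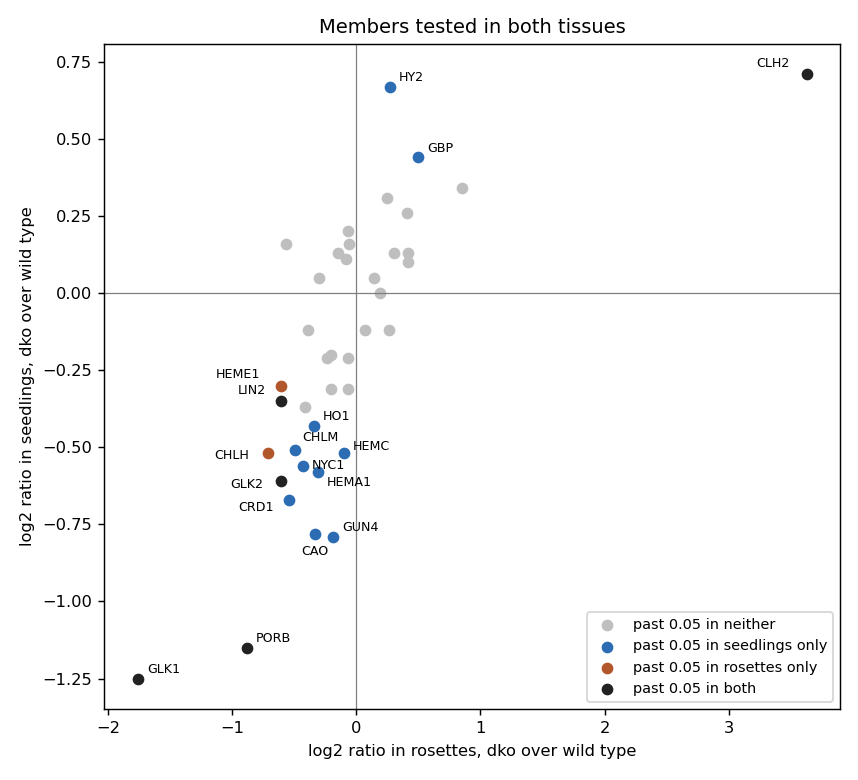
Log2 ratio of dko over wild type in rosettes (horizontal axis) against seedlings (vertical axis) for the 40 members tested in both, coloured by the tissue in which the authors' q was at or under 0.05. GLK1 and PORB lie lowest on both axes, CLH2 stands apart at 3.63 and 0.71, and HY2, GBP and CLH2 are the members past the threshold that lie above 0.

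The 47 further genes of the route that were counted as lists had most of their calls below wild type, except for the regulators in rosettes. Beside the list counts below, 8.94% of all loci tested were lower and 7.81% higher in rosettes. In seedlings 8.14% of all loci tested were lower and 8.4% higher. At an unadjusted p under 0.05, 2679 of 18338 loci were lower and 2514 higher in rosettes. For seedlings these counts were 2598 and 2768 of 19747. The lists are short, and whether they differ from all loci was not tested. Of 17 other enzymes, 15 were tested in each tissue, and 3 fell and none rose in rosettes (4 and 0 at an unadjusted p under 0.05), while 4 fell and 1 rose in seedlings. HO3, a minor heme oxygenase, fell in both tissues. It went from 10.2 to 2.49 FPKM in rosettes (q = 0.000899) and from 1.46 to 0.721 FPKM in seedlings (q = 0.0471), per the authors' deposited tables. SGR2, the close relative of SGR1, fell in rosettes from 12.4 to 5.59 FPKM (q = 0.000899), and CYP89A9, which acts on late breakdown products, from 44.7 to 25 FPKM (q = 0.00231), per the authors' deposited table. In seedlings CHLP, which reduces the precursor of the phytol tail, fell from 599 to 364 FPKM (log2 ratio -0.72, q = 0.000768), per the authors' deposited table. The phytol kinase gene VTE5 (log2 ratio -0.52, q = 0.00309) and MES16, an esterase of late breakdown products (-1.18, q = 0.0371), also fell in the authors' deposited seedling table. The gene that rose there was OVA3, the glutamyl-tRNA synthetase of plastids and mitochondria, which charges the tRNA that the route starts from, from 32.7 to 42.3 FPKM (log2 ratio 0.37, q = 0.0267 in the authors' deposited table). It fell outside the rule for named genes and was chosen after its value was seen.

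Of 8 genes of the methylerythritol phosphate pathway, which supplies the phytol tail, 2 fell in rosettes and 3 in seedlings, with none higher, also at an unadjusted p under 0.05. DXS1, its entry enzyme, fell in both tissues, from 67.3 to 37.8 FPKM in rosettes (q = 0.00348) and from 169 to 93.4 FPKM in seedlings (q = 0.000768), per the authors' deposited tables. DXR fell in rosettes by a log2 ratio of -0.77 (q = 0.00455), and HDR and ISPF fell in seedlings by -0.55 (q = 0.000768) and -0.45 (q = 0.00504), per the authors' deposited tables. Of 10 genes listed as factors of enzyme assembly, stability or turnover, 2 fell and 1 rose in rosettes, and 3 of 9 tested fell in seedlings. BCM1, a thylakoid protein that favours chlorophyll synthesis over breakdown, fell in both, by log2 ratios of -0.65 (q = 0.0173) and -0.51 (q = 0.00141) in the authors' deposited tables. CPSRP43, a chaperone of light-harvesting proteins and of glutamyl-tRNA reductase, fell in rosettes from 19.5 to 5.87 FPKM (q = 0.000899) and was at 16.5 and 17.9 FPKM in seedlings (q = 0.633), per the authors' deposited tables. YCF54, a partner of the CRD1 cyclase, rose in rosettes from 56.9 to 91.7 FPKM (q = 0.0135), and LIL3:2 and CLPS1 fell in seedlings by log2 ratios of -0.36 (q = 0.0440) and -0.41 (q = 0.0278), per the authors' deposited tables.

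Of 12 regulators outside the set, 3 rose and none fell in rosettes (3 and 1 at an unadjusted p under 0.05), and 3 fell and none rose in seedlings (4 and 0 at that level). HY5, a light-signalling factor, rose in rosettes from 0.753 to 2.34 FPKM (q = 0.0245), and the GATA factor gene GNC from 5.33 to 9.24 FPKM (q = 0.0163), per the authors' deposited table. CGA1, the close relative of GNC, rose in rosettes from 6.06 to 13.8 FPKM (q = 0.000899) and fell in seedlings from 2.37 to 1.04 FPKM (q = 0.00808), per the authors' deposited tables. PIF4, a phytochrome-interacting factor, and ORE1, a senescence factor, fell in seedlings by log2 ratios of -0.58 (q = 0.000768) and -0.76 (q = 0.0127) in the authors' deposited table. In rosettes PIF4 had a log2 ratio of -0.57 and lay just outside the threshold (q = 0.0500452 in the authors' deposited table). PIF1, PIF3, PIF5, FHY3, FAR1, GUN1 and EIN3 passed in neither tissue.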

How the data were processed

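Per the labels' protocols, stranded libraries were made after removal of ribosomal RNA. Bowtie2, TopHat2, Cufflinks and Cuffdiff, each listed as version 2.2.0, were used on TAIR10, per the submitters' processing notes. The annotation, library scaling and handling of strand and shared reads are not recorded in the labels or headers. Per the file headers, the deposited FPKM is 1 value per group over all its replicates, so depth is unknown and intervals cannot be given. The log2 ratio (dko over wild type), the test score (not printed) and the p-value and q-value are those the authors deposited. The smallest p-value is 5e-05, which gives the smallest q of 0.000899 in rosettes and 0.000768 in seedlings. Recomputed log2 ratios differed from the deposited ones by at most 1.39e-05, and recomputed Benjamini-Hochberg q-values by at most 5.24e-07. With 1 pooled value per group, no test other than the deposited one could be run.

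Members and lists were chosen with earlier results of these data known. All 42 members and all other listed genes were found in both tables and in RefSeq TAIR10.1. Shares, sums, medians, upstream windows and alignments were computed in Python 3.11.15 with pandas 2.3.3 and Biopython 1.88; the counting was tested on simulated data. Motifs were searched and windows aligned over the full 250 bases before the gene start, neighbouring exons included, and the printed windows stop at the nearest exon of another gene. Spans in the tables start at 0 and were given 1-based. The coding spans of 41 members in RefSeq lie inside their span in the tables, and 8 members share a span with another locus. Values were printed for members past q 0.05 in a tissue and their isozymes, and for others where a step needed them; of the other lists, up to 4 genes past q 0.05 per list and tissue were named. Alternatives were q of 0.01 and 0.1, a minimum of 2-fold or of 1 FPKM, q recomputed over nuclear loci or over those at 1 FPKM or above, pseudocounts of 1 and 0.1, and recentred or rescaled ratios.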

Additional observations from a re-analysis of the deposited data

Results flagged for a closer look

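CGA1, a GATA factor gene, passed q 0.05 in opposite directions in the tissues, with a log2 ratio of dko over wild type of 1.18 in rosettes and -1.18 in seedlings in the authors' deposited tables. The difference between the tissues was not tested, and 121 of all loci tested in both tissues passed in opposite directions.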

How the results depend on the processing

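No paired analysis was possible because the deposited tables hold 1 pooled value per group and no replicate numbers, and leaving out a replicate could not be run for the same reason. With q at 0.01, members called in rosettes went from 7 to 3 (2 lower, PORB and GLK1, and CLH2 higher), and those called alike in both tissues from 5 to 2. With q at 0.1 the member higher in rosettes became 2, and 8 members were called alike in both tissues. With a 2-fold minimum, 2 members remained in rosettes (GLK1 the 1 lower) and 3 in seedlings, all 3 lower (PORA, PORB and GLK1), with 0 higher there (0 also at an unadjusted p under 0.05 by Cuffdiff), and 1 was called alike in both. In rosettes HEME1, LIN2, CHLH and GLK2 thus rest on q between 0.0335 and 0.0453. Of all loci tested in rosettes, 9.72% were called at q 0.01 and 10.4% were higher at q 0.1. The share of all loci called alike in both tissues was worked out at q 0.05 only, where it was 6.61%. The counts called alike at the other settings are thus not read as particular to the members. With the 2-fold minimum, 9.32% of all loci tested were called in rosettes and 2.96% in seedlings. Of 19747 loci tested in seedlings, 298 were at least 2-fold higher at an unadjusted p under 0.05 by Cuffdiff. Member counts kept their value with 1 FPKM or more and with q recomputed either way. Leaving out members that share a span with another locus, chosen after seeing the data, gave 7 called in rosettes and 13 in seedlings. Adding 1 FPKM moved 3 member log2 ratios, PORA in seedlings from -5.92 to -3.25, CLH2 in rosettes from 3.63 to 2.96 and CLH2 in seedlings from 0.71 to 0.58, and adding 0.1 FPKM moved 1, PORA in seedlings to -5.25. Scaling moved the log2 ratios by at most 0.033, and the members' medians lay between -0.16 and -0.20 in rosettes and between -0.18 and -0.21 in seedlings under the alternatives tried. Without replicate values or counts, small differences between members, such as those within an enzyme, could not be tested, and a q above 0.05 does not show that a gene was unaffected.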
